A study of Mus musculus with 4 samples.

Results

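The 10 genes described here encode factors that travel with elongating RNA polymerase II. They are 6 subunits of the PAF complex (Paf1, Ctr9, Cdc73, Leo1, Rtf1 and Wdr61), the elongation factor and histone chaperone Spt6 (Supt6), the 2 subunits of the histone chaperone FACT (Supt16 and Ssrp1) and the cleavage factor TFIIS (Tcea1). They were chosen by symbol from the 30282 mouse genes of the deposited table, with earlier results of these data known. All 10 were found there and all averaged at least 10 normalised reads, so each was among the 14928 genes tested. The libraries are poly(A) RNA from V6.5 cells, a hybrid mouse embryonic stem cell line, in which the polymerase II subunit RPB3 carries a minimal auxin-inducible degron (mAID) and GFP. All cells received doxycycline (1 µg/ml, 12 h) to switch on TIR1, the plant F-box protein that auxin binds together with the degron, and grew with a GSK3 inhibitor (CHIR99021) and a MEK inhibitor (PD0325901). The untreated group (2 libraries) received nothing more, and the IAA group (2 libraries) was then given the auxin IAA at 500 µM for 12 h. The treatment labels give these 12 h, but the protocol text also describes poly(A) sequencing after 1 h of RPB3 depletion, so the duration is in doubt. The labels give neither the number of clones behind the degron line nor whether the libraries were separate cultures, and each p-value reflects the scatter of these libraries alone, possibly a technical one. Degron-free cells with IAA were not analysed here.

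Polymerase II does not elongate alone. The PAF complex rides on it and recruits the machinery that ubiquitylates histone H2B, Spt6 and FACT take nucleosomes apart ahead of the enzyme and put them back behind it, and TFIIS makes a backtracked polymerase cut its own transcript so that it can go on. Embryonic stem cells are known to need the PAF complex to hold their identity, and FACT is abundant in dividing and undifferentiated cells.

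Recovered reads came to between 8724737 and 9194432 per library. A chi-square per gene, near 1 where libraries differ by counting error only, was 1.24 to 1.41 within groups and 9.49 to 9.96 between them. All 8 stem cell markers were present, with summed normalised read counts of 51426 and 53210 in untreated and 56078 and 53945 in IAA libraries. The sum hides opposite moves. Tfcp2l1, Klf4 and Nanog were higher in both IAA libraries than in either untreated one, and Zfp42, Dppa5a and Pou5f1 were lower in both. Sox2 and Esrrb overlapped between the groups. Klf4 had 3409 and 3429 against 4941 and 4869, and Dppa5a 7356 and 7578 against 6116 and 5524. Of 8 fibroblast (feeder) markers 4 were listed, with sums of 191 and 242 against 117 and 135, and their part in the results was not tested. Polr2c, the mRNA of the degraded RPB3, had 2726 and 2885 against 3242 and 3158 normalised read counts; mRNA is no check on a protein that is degraded.

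All values below are normalised read counts, that is, reads divided by the size factor the authors used for each library. The choice of factor matters here, since the changes of these 10 genes were small. At the deposited scaling 39.9% of tested genes were called, 28.9% lower and 11.1% higher (limma, adjusted p under 0.05), and the median log2 fold change over all tested genes was -0.11. Median-of-ratios factors, which centre the genes by construction, moved that median to -0.01 and the share of calls that were higher from 27.7% to 49.9% (20.5% of tested genes lower, 20.3% higher). The calls of the 10 genes are therefore given under both, and those of other genes at the deposited scaling unless the other is named. The protocols also describe culture of Drosophila S2 cells and the processing notes list the fly build dm6. Whether the deposited factors came from fly or from mouse reads is not stated, so a change in total mRNA and an effect of scaling cannot be told apart in the median of -0.11.

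After IAA the group split into 2 sets of 5. Ctr9, Supt6, Paf1, Leo1 and Rtf1 were higher in both IAA libraries than in either untreated one, by 6.64% to 12.7% of the untreated mean. Wdr61, Supt16, Cdc73, Ssrp1 and Tcea1 were lower in both, by values from -9.88% to -17.9%. Groups that do not overlap are common in these data (68.1% of tested genes, 22.5% with IAA above and 45.6% with IAA below), so this separation alone sets no gene apart. At the deposited scaling limma called 5 members lower (Wdr61, Supt16, Cdc73, Ssrp1, Tcea1) and 2 higher (Ctr9, Supt6), and 3 were not called. With median-of-ratios factors it called 5 higher (Ctr9, Supt6, Paf1, Leo1, Rtf1) and 2 lower (Wdr61, Supt16), and Cdc73, Ssrp1 and Tcea1 were not called. The calls for Ctr9, Supt6, Wdr61 and Supt16 thus stood under both. The authors' deposited table, whose standard errors for these genes run from 0.0750 to 0.130 against 0.04 to 0.06 in limma, has an adjusted p under 0.05 for 1 member, Supt16 (9.57% of its genes with an adjusted p were lower and 2.47% higher), and carries the label unchanged for all 10, since the smallest log2 fold change it labels up or down is 1.00 in size. With any 1 library left out, limma on the rounded values called none of the 10 and 0 genes in all (3 to 5 of the 10 were lower and 1 to 2 higher at an unadjusted p under 0.05). The median log2 fold change of the 10 was -0.03 against -0.11 over all tested genes, and turned to 0.07 against -0.01 with median-of-ratios factors. In absolute size their median was 0.16 against 0.23 over all tested genes at the deposited scaling.

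**Figure D1:**
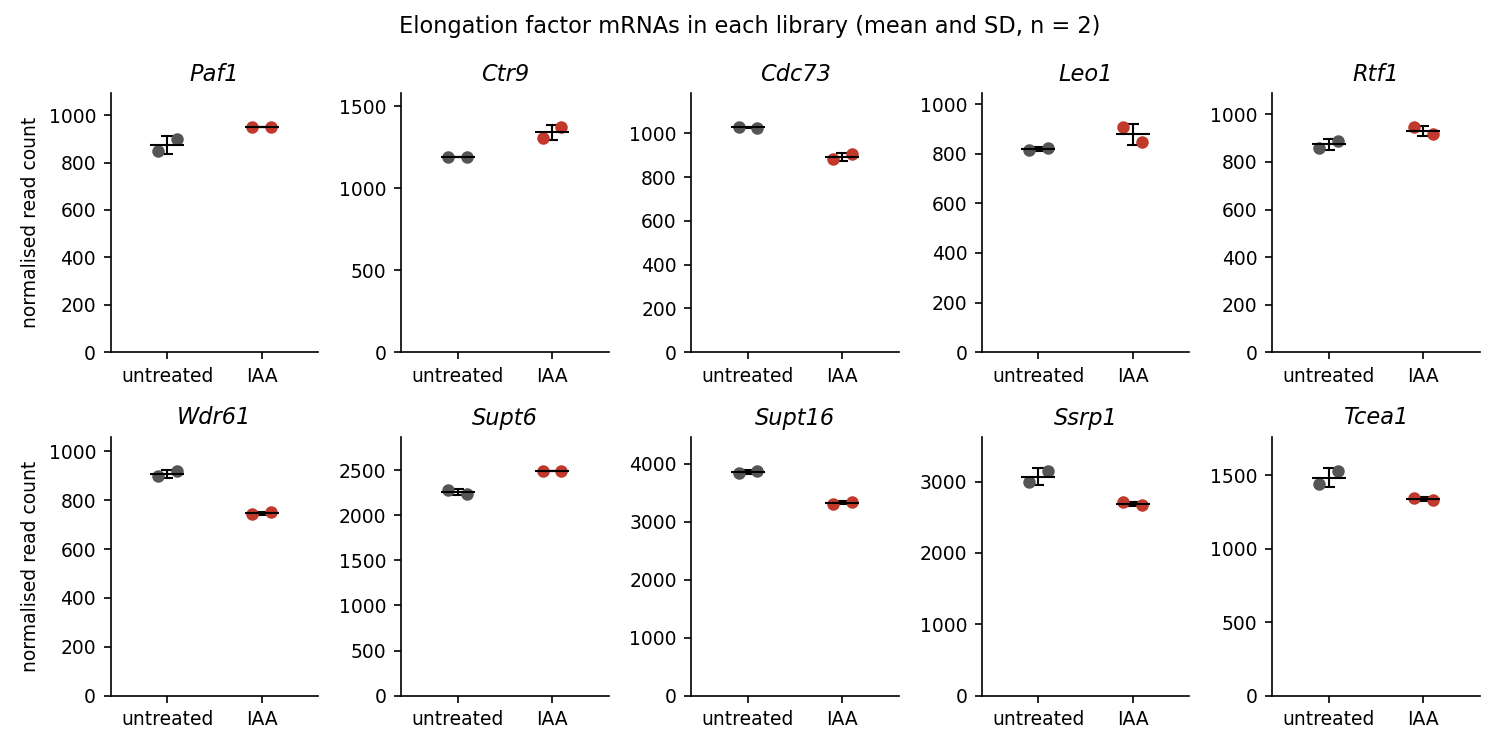
Normalised read count (vertical axis, from 0) of each gene in the 2 untreated and the 2 IAA libraries; points are libraries, dashes and bars the mean and SD (n = 2). Ctr9, Supt6, Paf1, Leo1 and Rtf1 sit higher after IAA and the other 5 lower, and the 2 groups of no gene overlap.

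In the PAF complex Ctr9 rose while Wdr61 and Cdc73 fell. Ctr9 (ENSMUSG00000005609, chromosome 7, 111028951 to 111056377, GRCm38), whose protein holds the complex together through its tetratricopeptide repeats, stood at 1190 and 1189 in untreated and at 1309 and 1372 in IAA libraries. The untreated libraries were almost the same and both IAA libraries lay above them. Its mean went from 1189.5 ± 0.707 to 1340.5 ± 44.5 (SD over 2 libraries each), which is a log2 change of 0.17 (SE 0.05; limma adjusted p = 0.0117), and of 0.27 (adjusted p = 7.82e-06) with median-of-ratios factors. Without IAA replicate 2, on unrounded values, Ctr9 was not called at the deposited scaling (limma adjusted p = 0.134; 32.3% of tested genes were still called).

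Wdr61 and Cdc73 went the other way. Wdr61 (ENSMUSG00000061559, chromosome 9, 54714735 to 54734519), a WD40-repeat protein that also belongs to the cytoplasmic SKI complex, had 898 and 921 normalised read counts in the untreated and 742 and 752 in the IAA libraries. At the deposited scaling this was the largest change of the 10, from 909.5 ± 16.3 to 747.0 ± 7.07 (SD over 2 libraries each). The log2 change of Wdr61 was -0.28 (SE 0.06, limma adjusted p = 0.000681), and -0.18 (adjusted p = 0.0102) with median-of-ratios factors. With those factors the largest change was that of Ctr9, at 0.27. A stretch of 1581 bases of the longest Wdr61 transcript lies antisense to Dnaja4, which had 40 and 45 against 41 and 46 normalised read counts. The strand setting of the counting is not stated, so reads of the 2 genes in that stretch cannot be told apart, and their part in the result was not tested. Cdc73 (ENSMUSG00000026361, chromosome 1, 143598800 to 143702893) encodes parafibromin, a tumour suppressor. It had 1028 and 1026 normalised read counts in the untreated and 881 and 907 in the IAA libraries. The fall from 1027 ± 1.41 to 894 ± 18.4 (SD over 2 libraries each), which is a log2 change of -0.20 (SE 0.06; limma adjusted p = 0.00721), was not called with median-of-ratios factors (-0.10, adjusted p = 0.159) or, on unrounded values, without IAA replicate 1 (adjusted p = 0.0597; 33.1% of tested genes were called).

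Paf1, Leo1 and Rtf1 lay a little above the untreated level, and their call depended on the scaling. Paf1 (ENSMUSG00000003437, chromosome 7, 28392951 to 28399388), which pairs with Leo1 inside the complex, had 848 and 900 normalised read counts in the untreated libraries and 949 in both IAA libraries. Leo1 (ENSMUSG00000042487, chromosome 9, 75441524 to 75466432) had 815 and 825 against 907 and 849. Rtf1 (ENSMUSG00000027304, chromosome 2, 119675068 to 119735407), which carries the module that stimulates H2B ubiquitylation, had 858 and 889 against 946 and 917. In each of the 3 genes the higher untreated library was close to the lower IAA library. The log2 fold changes were 0.12 for Paf1 (95% interval -0.0016 to 0.24, limma adjusted p = 0.109), 0.10 for Leo1 (-0.03 to 0.22, adjusted p = 0.206) and 0.09 for Rtf1 (-0.03 to 0.21, adjusted p = 0.214). Under median-of-ratios scaling the same changes were 0.22, 0.20 and 0.19 (limma adjusted p = 0.0012, 0.00463 and 0.00469).

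Ratios of reads between 2 genes of the same library do not depend on any scaling factor. They were chosen after the values were seen and are given without a test; an exact permutation test of 2 libraries against 2 could not go below p = 0.333. Against Paf1, the ratios of Leo1 (0.961 and 0.917 in untreated, 0.956 and 0.895 in IAA libraries), Rtf1 (1.01 and 0.987, then 0.997 and 0.966) and Ctr9 (1.40 and 1.32, then 1.38 and 1.44) overlapped between the groups. Those 4 subunits therefore kept their proportions within the spread of the libraries. The ratio of Cdc73 to Paf1 was 1.21 and 1.14 in untreated and 0.928 and 0.956 in IAA libraries, and that of Wdr61 to Paf1 was 1.06 and 1.02 against 0.782 and 0.792. On the log2 scale these ratios changed by -0.32 for Cdc73 and by -0.40 for Wdr61, with no overlap between the groups. That separation was bound to follow, since Paf1 was higher in both IAA libraries and Cdc73 and Wdr61 were lower in both.

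**Figure D2:**
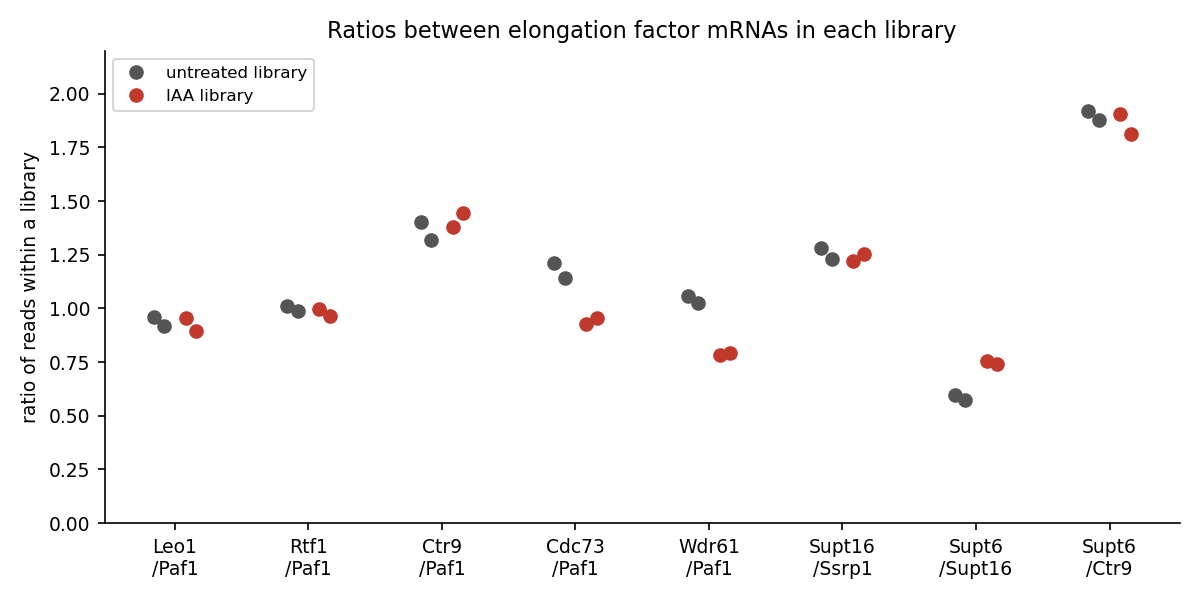
Ratio of reads of 2 genes within the same library (vertical axis, from 0), grey for untreated and red for IAA libraries. Leo1, Rtf1 and Ctr9 keep their ratio to Paf1 and Supt16 its ratio to Ssrp1, whereas Cdc73 and Wdr61 drop against Paf1 and Supt6 rises against Supt16.

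Spt6 was higher after IAA. Supt6 (ENSMUSG00000002052, chromosome 11, 78206746 to 78245987), whose protein binds the linker of the largest polymerase subunit as well as histones, had 2282 and 2231 normalised read counts in the untreated and 2492 and 2488 in the IAA libraries. The IAA libraries nearly coincided and lay above both untreated ones. The mean went from 2256.5 ± 36.1 to 2490.0 ± 2.83 (SD over 2 libraries each), which is a log2 change of 0.14 (SE 0.04; limma adjusted p = 0.0109), and of 0.24 (adjusted p = 1.01e-06) with median-of-ratios factors. On unrounded values at the deposited scaling Supt6 was not called without IAA replicate 1 (limma adjusted p = 0.0619) or without IAA replicate 2 (adjusted p = 0.0595). Its ratio to Ctr9 was 1.92 and 1.88 in untreated and 1.90 and 1.81 in IAA libraries, which overlap. A stretch of 242 bases of its longest transcript lies antisense to Sdf2, which had 277 and 279 against 238 and 213 normalised read counts.

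Both FACT genes fell at the deposited scaling, by nearly the same proportion. With any 1 library left out neither was called on the rounded values (limma adjusted p from 0.0929 to 0.112 for Supt16 and from 0.0929 to 0.159 for Ssrp1, with 0 genes called in all). On unrounded values, a setting chosen after seeing the data, both were called in all 4 such fits (35.8% of tested genes were called without untreated replicate 1). Supt16 (ENSMUSG00000035726, chromosome 14, 52160414 to 52197416), the large subunit that binds H2A-H2B, had 3834 and 3880 normalised read counts in the untreated and 3309 and 3349 in the IAA libraries. The mean went from 3857 ± 32.5 to 3329 ± 28.3 (SD over 2 libraries each), which is a log2 change of -0.21 (SE 0.04; limma adjusted p = 0.000158), and -0.11 (adjusted p = 0.011) with median-of-ratios factors. In the authors' deposited table the adjusted p of Supt16 is 0.0413. Ssrp1 (ENSMUSG00000027067, chromosome 2, 85037234 to 85047109), the HMG-box subunit, had 2989 and 3152 against 2711 and 2668. Its mean went from 3070.5 ± 115 to 2689.5 ± 30.4 (SD over 2 libraries each), which is a log2 change of -0.19 (SE 0.04; limma adjusted p = 0.00111), which was not called with median-of-ratios factors (-0.09, adjusted p = 0.0619) or in the authors' deposited table (adjusted p = 0.114). The ratio of Supt16 to Ssrp1 overlapped between the groups, at 1.28 and 1.23 in untreated and 1.22 and 1.26 in IAA libraries. Spt6 and FACT, which share the handling of nucleosomes, parted. The ratio of Supt6 to Supt16 was 0.595 and 0.575 in untreated and 0.753 and 0.743 in IAA libraries. The opposite directions of the 2 genes made this separation certain. A stretch of 986 bases of the longest Supt16 transcript lies antisense to Rpgrip1, which had 153 and 148 against 155 and 151 normalised read counts.

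Because the 2 FACT genes fell together and Supt6 went the other way, their promoters are shown side by side, each with 250 bases before and 50 after a transcript start, 5' to 3', from RefSeq on GRCm38.p6, where 7 of the 10 genes had an entry (Ssrp1 with 2 starts). Capitals mark, on either strand, the TATA box TATAAA, the CCAAT box, the GC box GGGCGG, the E-box CACGTG, the ETS core CCGGAAG, the NRF1 palindrome and the YY1 motif AAGATGGC.
Supt16, chr14:52197190-52197489, minus strand: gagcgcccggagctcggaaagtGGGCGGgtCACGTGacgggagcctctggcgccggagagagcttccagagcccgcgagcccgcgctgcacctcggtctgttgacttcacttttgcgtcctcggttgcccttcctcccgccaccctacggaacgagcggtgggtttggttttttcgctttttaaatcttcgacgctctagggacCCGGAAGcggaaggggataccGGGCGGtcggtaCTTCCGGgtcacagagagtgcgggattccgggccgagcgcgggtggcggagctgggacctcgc
Ssrp1, upstream start, chr2:85036870-85037169, plus strand: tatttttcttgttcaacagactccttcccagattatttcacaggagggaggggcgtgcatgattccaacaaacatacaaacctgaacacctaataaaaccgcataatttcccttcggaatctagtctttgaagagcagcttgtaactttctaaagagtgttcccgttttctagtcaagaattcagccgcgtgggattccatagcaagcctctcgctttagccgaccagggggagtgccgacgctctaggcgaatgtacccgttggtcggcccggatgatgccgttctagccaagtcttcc
Ssrp1, downstream start, chr2:85037201-85037500, plus strand: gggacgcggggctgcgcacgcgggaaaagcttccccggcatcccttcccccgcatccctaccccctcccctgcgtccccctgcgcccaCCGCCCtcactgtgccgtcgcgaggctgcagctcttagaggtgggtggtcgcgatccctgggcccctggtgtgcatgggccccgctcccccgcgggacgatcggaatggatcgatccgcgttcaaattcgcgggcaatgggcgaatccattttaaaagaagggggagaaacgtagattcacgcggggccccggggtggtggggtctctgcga
Supt6, chr11:78245654-78245953, minus strand: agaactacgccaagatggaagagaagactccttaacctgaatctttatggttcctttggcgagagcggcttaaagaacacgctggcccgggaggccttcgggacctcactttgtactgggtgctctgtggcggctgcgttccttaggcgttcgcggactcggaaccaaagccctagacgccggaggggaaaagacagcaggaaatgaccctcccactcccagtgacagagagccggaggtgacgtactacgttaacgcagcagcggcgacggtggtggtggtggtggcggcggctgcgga
The Supt16 window held 2 GC boxes, 1 E-box and 2 ETS cores, the downstream Ssrp1 window 1 GC box, and the upstream Ssrp1 and the Supt6 windows none of these letters. The Supt6 window follows the RefSeq start and lies wholly inside the GENCODE M21 span of this minus-strand gene, which begins at 78245987. Bases at and before that GENCODE start were therefore not searched for Supt6. The only motif found in both FACT genes, the GC box, occurs in 35.7% of all 32841 RefSeq promoter windows of this length, the ETS core in 8.86% and the E-box in 7.15%. No window of the 7 genes held TATAAA, which 13.6% of all windows hold. The 8 windows of these genes had 14 to 54 CpG dinucleotides, against a median of 7 over all windows. A match of letters is not a bound site, and these libraries do not measure binding.

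TFIIS is made from 3 genes in the mouse, and the one that moved most was not the ubiquitous Tcea1. Tcea1 (ENSMUSG00000033813, chromosome 1, 4857814 to 4897909) stood at 1436 and 1529 in untreated and at 1344 and 1328 in IAA libraries. The average moved from 1482.5 ± 65.8 to 1336 ± 11.3 (SD over 2 libraries each), which is a log2 change of -0.15 (SE 0.05; limma adjusted p = 0.0245). The call was lost with median-of-ratios factors (-0.05, adjusted p = 0.464) and, on unrounded values, without untreated replicate 2 (adjusted p = 0.183; 34.4% of tested genes were called), IAA replicate 1 (0.0663) or IAA replicate 2 (0.108). Tcea3, a TFIIS gene of more restricted expression, had 545 and 536 against 313 and 316 normalised read counts. It fell by 0.78 on the log2 scale (SE 0.08; limma adjusted p = 1.55e-07), by 0.68 (adjusted p = 7.22e-12) with median-of-ratios factors, and has an adjusted p of 0.000277 in the authors' deposited table. Tcea2, the testis-enriched gene, was low at 56 and 57 against 50 and 44 and was not called (-0.26, 95% interval -0.69 to 0.16). The ratio of Tcea1 to Tcea3 went from 2.63 and 2.85 to 4.29 and 4.21. Tcea1 shares 842 bases at 99.3% identity with the pseudogene Tcea1-ps1, listed at 16 and 6 against 9 and 6. At 100% identity it shares 231 bases with Gm12112, listed at 5 and 7 against 3 and 3. A further 202 bases at 100% identity are shared with Gm37988, for which no values are listed. Reads could therefore be split between Tcea1 and these genes.

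**Figure D3:**
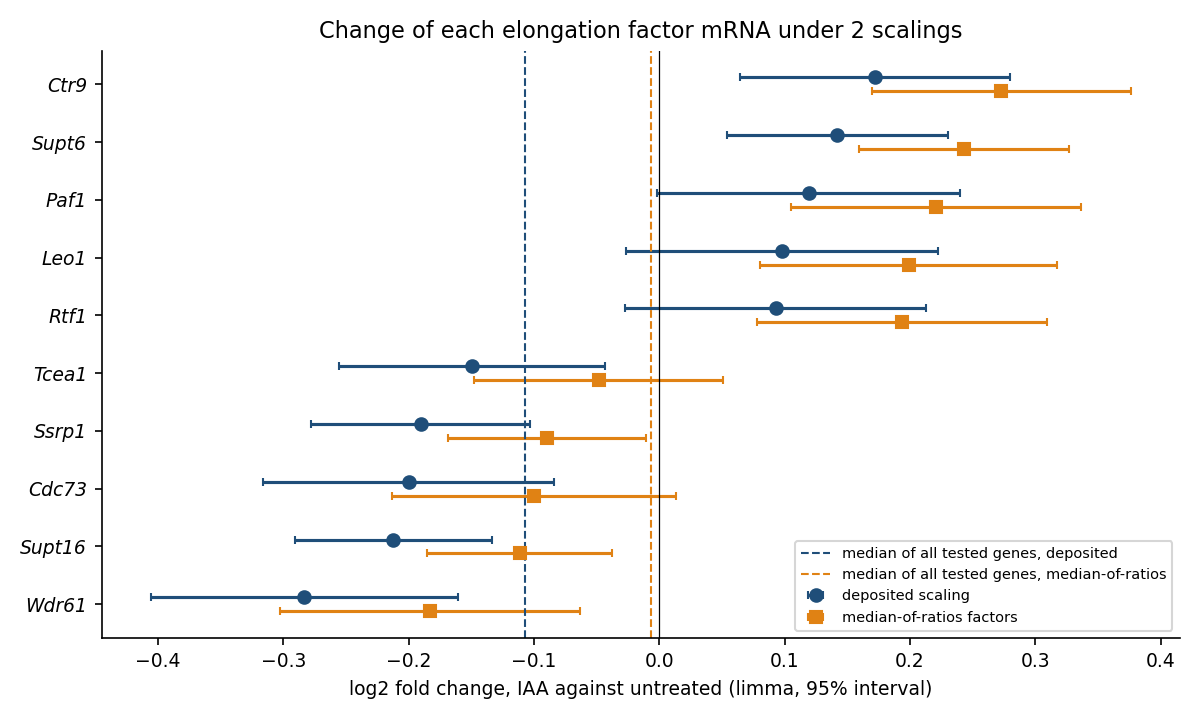
Log2 fold change of IAA against untreated (horizontal axis) of each gene, with 95% limma intervals, at the deposited scaling (circles) and with median-of-ratios factors (squares); dashed lines are the medians of all tested genes. Ctr9 and Supt6 lie above 0 and Wdr61 and Supt16 below 0 with both, while the other 6 are called with 1 of the 2 scalings.

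Per length the 10 mRNAs covered a wide range. Normalised read counts per kilobase of the longest coding transcript in GENCODE M21 were, in the untreated libraries, highest for Ssrp1 (1121 ± 42.1, SD, n = 2) and Supt16 (825 ± 6.96), followed by Tcea1 (519 ± 23.0), Paf1 (436 ± 18.4), Leo1 (376 ± 3.24), Supt6 (348 ± 5.56), Ctr9 (277 ± 0.164), Wdr61 (270 ± 4.82), Rtf1 (187 ± 4.70) and Cdc73 (88.6 ± 0.122). The neighbours Ctr9 and Wdr61 lay within 2 SD of each other, and every other pair of neighbours lay further apart. After IAA the FACT genes were still the highest, at 982 ± 11.1 and 712 ± 6.05. The lengths limit this order: with all annotated exons merged, Ssrp1, Supt16 and Tcea1 stayed at the top in that order and Cdc73, whose longest transcript has 11586 bases, stayed last, but Supt6 moved from place 6 to 4 and Ctr9 from 7 to 9.

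Among the genes that work beside these factors, as among all tested genes, calls went in both directions. Of the other elongation factors and partners, 26 were tested, 4 were higher and 4 lower (11.1% and 28.9% of all tested genes were). Their median log2 fold change was 0.04 against -0.11 over all tested genes. With median-of-ratios factors 11 were higher and 3 lower (20.3% and 20.5% of all tested genes were). The largest rise was Rprd1a, a reader of the polymerase tail, with 831 and 825 against 1087 and 1006 normalised read counts (log2 fold change 0.34, SE 0.06, and 0.44 with median-of-ratios factors, called higher by limma in both), and the largest fall was Tcea3. Iws1, the partner that docks on Spt6, was named after its values were seen: it had 1865 and 1841 against 1719 and 1654 and was called lower (-0.14, limma adjusted p = 0.0247), opposite to Supt6, but not with median-of-ratios factors (-0.04, adjusted p = 0.576).

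Downstream of the PAF complex, genes of H2B ubiquitylation and of histone methylation linked to transcription had 6 of 20 higher and 7 lower, with a median of -0.05. Over all tested genes 11.1% were higher and 28.9% lower. With median-of-ratios factors 8 of the 20 were higher and 4 lower (20.3% and 20.5% of all tested genes were). Setd1b, an H3K4 methyltransferase, rose most, from 282 and 311 to 443 and 491 normalised read counts (log2 fold change 0.65, SE 0.09; limma adjusted p = 5.23e-06). Ube2e1, a ubiquitin-conjugating enzyme, fell most, from 180 and 200 to 118 and 156 (-0.48, SE 0.13; adjusted p = 0.00742). Both were called in the same direction with median-of-ratios factors (0.75 and -0.38). The H2B ubiquitin ligases themselves, named after their values were seen, had 786 and 786 against 859 and 836 (Rnf20) and 1202 and 1278 against 1227 and 1263 (Rnf40), and neither was called at the deposited scaling. Rnf20 did pass the test under median-of-ratios scaling (log2 fold change 0.21, limma adjusted p = 0.00332) and Rnf40 did not (0.11, adjusted p = 0.0955). Setd2, the H3K36 methyltransferase that rides on the polymerase tail and was also named after its values were seen, had 2053 and 2045 against 2577 and 2619 (0.34, SE 0.04; limma adjusted p = 2.61e-06). Its call held under the other scaling (0.44).

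Wdr61 also serves the SKI complex, which feeds mRNA to the cytoplasmic exosome. Of 4 genes tested there 2 were lower and 0 higher (28.9% and 11.1% of all tested genes were), with a median log2 fold change of -0.10. Under median-of-ratios scaling 1 was lower and 0 were higher (20.5% and 20.3% of all tested genes were). The gene whose call differed was Hbs1l, a ribosome rescue factor, with 1330 and 1340 against 1186 and 1215 normalised read counts (-0.15, limma adjusted p = 0.021, and -0.05, adjusted p = 0.44, with median-of-ratios factors). Ttc37, the scaffold of that complex, fell from 1042 and 1053 to 821 and 887 normalised read counts (log2 fold change -0.30, SE 0.06; limma adjusted p = 0.000446; -0.19, adjusted p = 0.00439, with median-of-ratios factors), close to the -0.28 of Wdr61, and Skiv2l, its helicase, had 505 and 538 against 527 and 478 (-0.05, 95% interval -0.21 to 0.10). Hbs1l, Skiv2l and Pelo were named after their values were seen. The 2 not called by limma were Skiv2l and Pelo (unadjusted p = 0.474 and 0.157), and Pelo, which rescues stalled ribosomes, had 60 and 57 against 70 and 71.

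Other histone chaperones had 3 of 18 higher and 5 lower (11.1% and 28.9% of all tested genes were), with a median of -0.03. With median-of-ratios factors 6 were higher and 2 lower (20.3% and 20.5% of all tested genes were). Npm1, the nucleolar chaperone nucleophosmin, fell most, from 21566 and 22038 to 15811 and 16133 normalised read counts (log2 fold change -0.45, SE 0.03; limma adjusted p = 2.64e-10). Hira, which deposits histone H3.3, rose most, from 226 and 303 to 354 and 332 (0.39, SE 0.11; adjusted p = 0.00847). Both were called in the same direction with median-of-ratios factors (-0.35 and 0.49). FACT thus lay between them, with changes smaller than either.

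**Figure D4:**
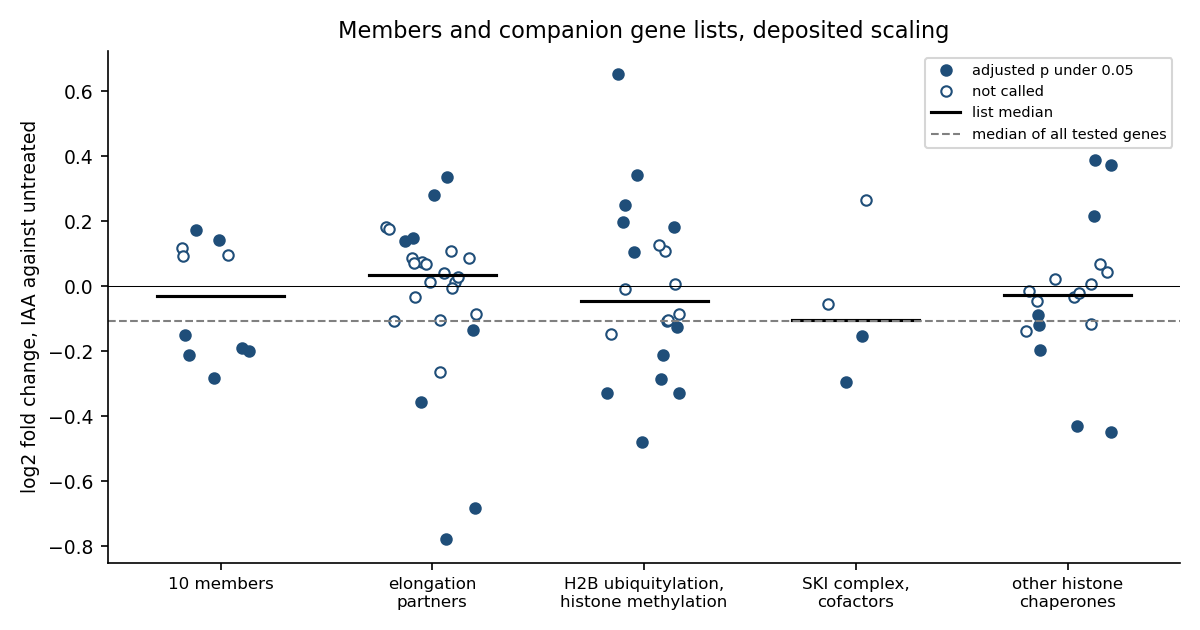
Log2 fold change of IAA against untreated (vertical axis) for the 10 members and the tested genes of 4 companion lists at the deposited scaling; filled points passed an adjusted p under 0.05, bars are list medians and the dashed line is the median of all tested genes (-0.11). The 10 members span -0.28 to 0.17, inside the spread of the partners and chaperones.

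Averaged over the 10 genes at the deposited scaling, rises and falls nearly cancelled. Their median log2 fold change was -0.03 there and 0.07 with median-of-ratios factors. Over the 4 libraries the average centred log2 profile of the members was closest, among 65 companion genes with a mean of at least 100, to Hmgb1 (Euclidean distance 0.0226), Cabin1 (0.0398) and Rbbp5 (0.0473). None of these 3 was called by limma (log2 fold changes -0.03, -0.02 and -0.0076), and with 4 libraries the likeness is a description only. In bulk RNA a change in the make-up of the cells and a change in the RNA of each cell cannot be told apart.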

How the data were processed

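Poly(A) RNA of 2 untreated and 2 IAA libraries was compared, grouped by title. Tools listed in the submitters' processing notes, without roles, are featureCounts, STAR, DESeq2, Bowtie2, cutadapt 1.18, deepTools and SAMtools, with builds mm10 and dm6. The annotation, the strand setting and the origin of the size factors (fly or mouse reads) have no entry there. The deposited per-library values are scores: reads divided by 1 factor per library and rounded. The deposited mean column is an unrounded signal, from which factors of 0.88, 0.87, 0.98 and 0.95 and whole reads were recovered for 100% of genes (tolerance 0.001). The log2 fold changes with standard errors, the test statistic score and the p-values deposited by the authors come from DESeq2, per the file name. Because the columns are rounded, limma on log values was the main test, and voom on the recovered reads was among the alternatives.

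Genes with a mean of at least 10 entered limma 3.58.1 (R 4.3.3) as log2(value + 1) (empirical Bayes trend, Benjamini-Hochberg adjustment over 14928 genes, called under 0.05); the fit was checked on simulated data. Fold changes are on that scale. The members, lists and alternatives were chosen with earlier results of these data known. Named genes were all members, Tcea2, Tcea3, the largest called rise and fall of each list, the 3 nearest patterns and Polr2c. Iws1, Rnf20, Rnf40, Setd2, Skiv2l, Pelo and Hbs1l, and the genes that share sequence with members, were named outside that rule, after their values were seen. Shared sequence (at least 200 bases at 95% identity) was sought among GENCODE M21 transcripts on GRCm38, the assembly also called mm10, with blastn 2.17.0; coordinates are from GENCODE M21. No pairing by replicate number was applied.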

Additional observations from a re-analysis of the deposited data

How the results depend on the processing

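All 10 members kept their direction under each of the 20 alternatives (200 values, 0 reversed), but most of these could not have reversed one. Thresholds, filters and the replicate block reuse the same fold change. Groups that do not overlap keep their direction with any 1 library left out. Of the 200 values, 138 stayed on the same side of the threshold, 56 lost and 6 gained a call. With median-of-ratios factors 3037 genes were higher and 3054 lower, and 5 members were higher and 2 lower. With equal library totals 3083 genes were higher and 2985 lower, with 5 members higher and 2 lower. An adjusted p under 0.01 left 3060 genes lower and 1037 higher, with 4 members lower and 0 higher by limma. At an unadjusted p under 0.05 the same limma fit had 5057 genes lower and 2108 higher, with 5 members lower and 2 higher. With no filter on low values, 638 genes were lower and 179 higher, and 1 member was lower and 0 higher. At an unadjusted limma p under 0.05 that fit had 5130 genes lower and 2743 higher, with 5 members lower and 2 higher. The authors' deposited table has 1100 genes lower and 284 higher, 1 member lower and 0 higher at an adjusted p under 0.05. At an unadjusted p under 0.05 it has 2190 genes lower and 704 higher, with 3 members lower and 0 higher. Leaving out any single library with the rounded values gave 0 calls over all genes by limma, 0 lower and 0 higher, and so 0 members; at an unadjusted p under 0.05 they gave 3330 to 3682 lower and 1091 to 1588 higher, with 3 to 5 members lower and 1 to 2 higher. The cause was not tested. On unrounded values, chosen after seeing the data, the same fits called 3471 to 3939 genes lower and 1146 to 1608 higher, with 3 to 5 members lower and 0 to 2 higher. In these 4 fits Wdr61, Supt16 and Ssrp1 were called each time. With the replicate number as a block the counts were 1647 higher and 4311 lower, with the same 2 and 5 members called; same-numbered libraries did not deviate together (correlation 0.0015 over tested genes), so the numbers were not taken as pairs. Pseudocounts of 0.5 and 5, a mean of at least 100, unrounded values and voom left both member counts as they were. Read depth gave each member at least 742 normalised read counts, and replicates differed by at most 6.61% of their mean.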
